A study of Mus musculus with 12 samples.

Results

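The comparison described here is the earliest one of the study: cells labelled as mouse Müller glia after 2 h of co-culture with retinal pigment epithelium (RPE) cells that had received PNU-282987 (PNU), against the same co-culture with RPE cells that had received the solvent DMSO. Its members are the genes with at least 1 CPM (a count relative to the total of its library) in 3 or more of the 6 libraries at 2 h. This rule kept 12563 of the 49315 genes in the tables, and 17164 genes were tested in all.

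The study holds 12 poly(A) RNA libraries in 4 groups of 3, with PNU or DMSO for 2 h or 6 h. Per the labels, both cell types were primary wild-type mouse cultures of 4 passages, grown with 10% serum, and the age and strain of the mice are not given. RPE cells in the PNU group received 100 nM PNU in DMSO, those in the control group DMSO alone, and the glia met them across a transwell membrane. The labels give the DMSO concentration as 0.1% in one place and 1% in another. The purpose is to learn which glial transcripts differ soon after contact with medium from drug-treated epithelium. The titles call the libraries biological replicates without saying whether they came from separate cultures, and every p-value here therefore reflects only how these libraries scatter.

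PNU-282987 activates the α7 type of nicotinic acetylcholine receptor, a ligand-gated channel that admits calcium. Müller glia span the retina, and in some vertebrates they re-enter the cell cycle and form new neurons after injury. Within hours of a stimulus, cells commonly induce immediate early genes, among them targets of the cAMP-responsive factor CREB, and stressed cells induce genes of amino acid supply through the factor ATF4.

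The 6 libraries held 45260479 to 66518799 counts, so that 3 counts corresponded to 0.0451 to 0.0663 CPM. They did not separate cleanly by treatment. On the first principal component, which held 78.5% of the variance over members, the PNU libraries scored -22.5, -28.1 and -27.8 (replicates 1, 2 and 3, an order kept for all values below). The DMSO libraries scored 53.7, 47.6 and -22.9, so that DMSO replicate 3 lay among the PNU libraries. In 9655 of the 12563 members, DMSO replicate 3 was shifted out of the range of DMSO replicates 1 and 2 towards PNU. PNU replicates 2 and 3 were nearly identical, with a coefficient of variation of 0.0179 beyond counting noise. PNU replicate 1 and DMSO replicate 3 also carried Y-linked RNA, at summed levels of 6.16 and 12.2 CPM against at most 0.218 CPM in the other 4. Values are therefore also given for PNU replicate 1 against DMSO replicate 3, and for PNU replicates 2 and 3 against DMSO replicates 1 and 2. These 2 pairings use separate libraries. In the second, Xist, the noncoding RNA of X inactivation, also differed, at 0.0667 and 0.0924 CPM with PNU against 0.809 and 0.860 CPM with DMSO. Treatment and that difference between libraries cannot be told apart there.

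Of the defining markers of the labelled cell type, Rlbp1, Aqp4 and Slc1a3 were scarce and Glul was not. Rlbp1, which binds retinaldehyde in Müller glia, lay between 0.0445 and 0.131 CPM. Aqp4, the glial water channel, reached 0.111 CPM and was at 0 in 4 libraries. Slc1a3 lay between 0.431 and 2.73 CPM. Glul, glutamine synthetase, was well detected, between 62.1 and 70.9 CPM. The 13 members of the Müller glia list summed to 8225 to 8438 CPM with PNU and 6626 to 8205 CPM with DMSO, most of it Vim. Those of the fibroblast and mesenchyme list, 17 members, summed to 32629 to 37607 CPM with PNU and 33869 to 41896 CPM with DMSO, and those of the pericyte and smooth muscle list, 8 members, to 3361 to 3792 and 2338 to 3220 CPM. Defining markers of other cells were near the floor: Rpe65 of RPE cells at most 0.0461 CPM, Ptprc of leukocytes 0.200 CPM and Pecam1 of endothelium 0.131 CPM. In whole cultures, fewer cells of a type and less RNA per cell cannot be told apart.

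A total of 45 members passed the test at 2 h, which is 0.358% of members, with 32 risen (0.255%) and 13 fallen (0.103%). The test was edgeR's quasi-likelihood test over all 12 libraries, with Benjamini-Hochberg adjusted p-values under 0.05 among 17164 genes. Its estimate of the spread thus came partly from the 6 h libraries. There, PNU replicates 2 and 3 were nearly identical (coefficient of variation beyond counting noise 0.0249), as was every DMSO pair (0.0181 to 0.0225). With the 2 h libraries alone, or with near-identical libraries summed, 0 members passed. Risen genes differed by 0.38 to 2.17 on the log2 scale, with a median of 0.73, and fallen genes had a median size of 1.13. The adjusted p-values of these genes ran from 0.0181 to 0.0435. For each of the 45, the groups did not overlap, and PNU replicate 1 differed from DMSO replicate 3 in the same direction. The difference was smaller in that pairing for 40 of them, with a median size of 0.55 against 1.00 in the other 4 libraries. DMSO replicate 3 was the DMSO library nearest to PNU for 28 of the 32 risen and 12 of the 13 fallen genes. The count of members that passed was 6543 without DMSO replicate 3 (25.6% of members higher and 26.5% lower), 95 without PNU replicate 1, 1 without DMSO replicate 1 or DMSO replicate 2, and 0 without PNU replicate 2 or PNU replicate 3, where 3528 and 3423 of all genes had an unadjusted p under 0.05. It was 7590 (29.9% higher and 30.5% lower) without DMSO replicate 3 and PNU at 6 h replicate 1, which also stood apart from its group.

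Because the test made few calls, the text also counts members whose groups do not overlap, meaning that all 3 PNU libraries were above, or all 3 below, the 3 DMSO libraries. There were 1519 such members with PNU higher (12.1%) and 1375 with PNU lower (10.9%). Without DMSO replicate 3 these numbers were 4243 and 4258 of the 12563 members, and without PNU replicate 1 they were 2332 and 2435. Groups that do not overlap stay apart with fewer libraries, so leaving out a library can only keep or raise such counts. Scaling by library totals alone in place of TMM gave 1155 and 1896, a share of 37.9% higher in place of 52.5%. An unadjusted p under 0.05 was found for 4226 members, or 33.6%. DESeq2 called 7.12% of members higher and 10.6% lower, and limma-voom 0.47% and 0.0876%. Counts in the lists below are to be read against these shares over all members. The median log2 fold change over members was -0.01, and the other scalings moved the median difference of all members by less than 0.1. A gene described as higher or lower without "rose" or "fell" below did not pass the test.

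**Figure D1:**
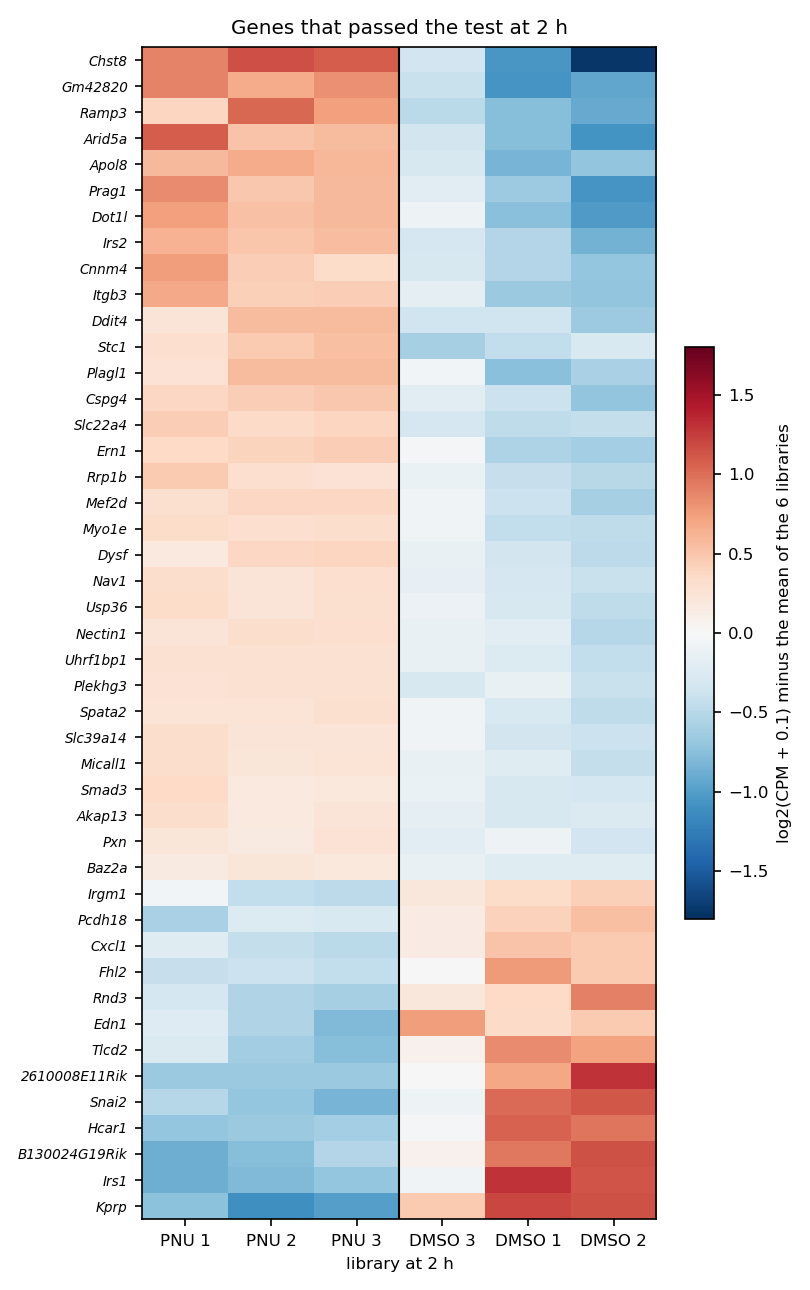
Levels of the 45 genes that passed at 2 h, in the 6 libraries (columns), as the log2 CPM minus the gene's mean over the 6 libraries (colour, red higher and blue lower). DMSO replicate 3 has paler colours than DMSO replicates 1 and 2 for most of the 32 risen and 13 fallen genes.

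The risen genes included Plagl1, Stc1 and Mef2d. Plagl1, an imprinted zinc-finger transcription factor that restrains growth (ENSMUSG00000019817, GRCm38 chromosome 10, 13060504 to 13131694), stood at 73.2, 90.8 and 91.0 CPM with PNU and at 36.2, 40.7 and 58.9 CPM with DMSO. The groups did not overlap, and the log2 fold change was 0.91 ± 0.15 (SE, n = 3 per group, edgeR adjusted p = 0.0385). Stc1, the secreted glycoprotein stanniocalcin 1, which takes part in calcium and phosphate handling, was scarce, at 3.37, 3.80 and 4.00 CPM against 1.97, 2.22 and 1.75 CPM. Its DMSO replicate 3 was the lowest of all 6 libraries, and the difference between PNU replicate 1 and DMSO replicate 3, 0.91, was as large as in the other libraries, 0.87. Mef2d, a MADS-box transcription factor regulated by calcium, rose from 138, 120 and 174 CPM to 222, 234 and 235 CPM (0.68 ± 0.12). A noncoding gene lies antisense to Mef2d, and since it is not known whether counting used the strand, the reads of the pair cannot be told apart. Reads cannot be told apart either for Bhlhe40, Chsy1, Crem, Csrnp1, Dysf, Fzd5, Glul, Has2, Id4, Irs1 and Irs2. This also holds for Kdm6b, Kmt2a, Micall1, Nav1, Plagl1, Ramp3, Slc2a1, Spry1 and Vcam1. The partners of these genes on the opposite strand, coding or noncoding, had mean levels of at most 1.83 CPM. Nav1 also shares 134 bases of its strand with Gm38399, at 8.62 CPM. Spata2, Nr1d1, Yars and Ddit3 overlap abundant genes on the opposite strand, Rnf114 at 33.9, Thra at 92.2, C77080 at 39.7 and Mars at 184 CPM, so their counts are less certain.

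Stress sensing, transport and nucleolar genes were also among those that rose. Ern1, which encodes IRE1α, a sensor of unfolded protein in the endoplasmic reticulum, stood at 66.0, 68.4 and 70.1 CPM with PNU and 35.2, 33.9 and 50.5 CPM with DMSO (0.77 ± 0.13). It was the 1 gene of 27 in the list of ER folding and the unfolded protein response that passed. In that list 4 members were higher without overlap (14.8%) and 3 lower (11.1%), close to the shares over all members, and without DMSO replicate 3 the counts were 13 and 5. Slc22a4, a transporter of organic cations and ergothioneine, stood at 5.15, 4.78 and 4.94 CPM against 2.69, 2.77 and 3.01 CPM, and there DMSO replicate 3 lay near its own group. Slc39a14, a zinc and iron importer, rose by 0.52 ± 0.09. Rrp1b, a nucleolar protein, had 36.5, 32.5 and 31.5 CPM against 19.7, 18.7 and 24.3 CPM, and Usp36, a nucleolar deubiquitinase, had 75.8, 70.3 and 73.5 CPM against 49.3, 44 and 55.6 CPM. Baz2a, a nucleolar chromatin protein, showed the smallest change of those that passed, 0.38 ± 0.06.

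Further risen genes act on membranes and the cytoskeleton. Myo1e, a membrane-linked myosin, stood at 175, 172 and 173 CPM with PNU and 102, 102 and 133 CPM with DMSO. Dysf, the membrane-repair protein dysferlin, stood at 90.4, 104 and 105 CPM against 63.7, 57.6 and 72.7 CPM. Plekhg3, a guanine nucleotide exchange factor, had 122, 123 and 123 CPM against 92.9, 77.5 and 83.7 CPM. These genes differed by modest amounts, 0.54 to 0.63 on the log2 scale, and the PNU libraries of Myo1e and Plekhg3 lay close together. Akap13, an anchor for protein kinase A, was at 161, 147 and 153 CPM against 107, 108 and 115 CPM, and Pxn, the focal adhesion adaptor paxillin, at 183, 177 and 189 CPM against 149, 124 and 137 CPM. For Akap13, Pxn and Plekhg3 the difference was about the same in both pairings of libraries: 0.48 and 0.48, 0.42 and 0.43, and 0.55 and 0.54. Nav1, Nectin1, Micall1, Uhrf1bp1 and Spata2 rose by 0.52 to 0.56. Gm42820 also passed, but 541 of its bases lie on the same strand as Notch2, so its reads are uncertain.

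Of the fallen genes, Pcdh18, a protocadherin, stood at 54.5, 69.1 and 67.7 CPM with PNU and 109, 119 and 91.1 CPM with DMSO, and it differed alike in both pairings, -0.74 and -0.73. Irgm1, an interferon-inducible GTPase, had 55.1, 42.0 and 41.5 CPM against 72.2, 77.2 and 65.7 CPM (-0.63 ± 0.11). Cxcl1, a neutrophil chemokine, had 16, 13.8 and 13.3 CPM against 26.6, 25.8 and 20.7 CPM. The uncharacterised transcript 2610008E11Rik had 14, 14.1 and 14 CPM against 36.2, 54.9 and 22.3 CPM. B130024G19Rik fell by 1.58 on the log2 scale, but 643 of its bases lie opposite Nr2f2, a more abundant nuclear receptor gene, so its reads are uncertain too. Larger changes among the genes that passed included Chst8 and Irs1. Chst8, a sulfotransferase, had 2.03, 2.47 and 2.35 CPM against 0.457, 0.243 and 0.804 CPM. Irs1, an insulin receptor adaptor, had 26.7, 28.3 and 30.3 CPM against 122, 108 and 47.1 CPM. Irs2, the related adaptor, went the other way, with 66.9, 61.1 and 63.9 CPM against 30.1, 24.0 and 35.2 CPM, and had the smallest adjusted p of all, 0.0181. Cspg4, Ddit4, Cnnm4, Prag1, Apol8 and Arid5a also rose, and Kprp, Hcar1, Snai2, Tlcd2, Edn1, Rnd3 and Fhl2 also fell. Snai2, a transcription factor of mesenchymal cells, had 22.2, 19.6 and 17.7 CPM against 64.5, 68.7 and 29.7 CPM, whereas for Edn1, the endothelin 1 gene, DMSO replicate 3 was the library farthest from PNU, with 6.97, 5.6 and 4.68 CPM against 10.5, 11.4 and 13.8 CPM. Tlcd2 shares 412 bases of its strand with the more abundant Mir22hg, so its reads are uncertain.

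In the list of cAMP and CREB targets, 14 of 23 members were higher with PNU without overlap (60.9%, against 12.1% of all members) and 0 were lower (against 10.9%). These counts depend on the choice of list, which was made with earlier results of these data known. Fos, which was lower without overlap, was not in this list and is counted below among immediate early factors. The median log2 fold change of the list was 0.37, and 20 of 23 were positive, against 48.5% of all members. None of them passed in edgeR, and 15 had an unadjusted p under 0.05 (33.6% of members did). DESeq2 called 10 higher and 1 lower (7.12% and 10.6% of members), and limma-voom 1 higher and 0 lower (0.47% and 0.0876%). The median was 0.33 between PNU replicate 1 and DMSO replicate 3, where 18 were positive against 48.3% of all members, and 0.50 in the other libraries, where 20 were positive against 50.3%. Leaving out any 1 library, which cannot lower these counts, gave 14 to 18 higher and 0 or 1 lower without overlap. Without DMSO replicate 3, edgeR called 14 of the 23 higher and 1 lower.

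The nuclear receptors of the NR4A family, which cells induce without needing new protein and which act without a known natural ligand, included the widest difference of the list, that of Nr4a3. Nr4a1 (ENSMUSG00000023034, chromosome 15, 101266846 to 101274792) stood at 946, 684 and 695 CPM with PNU and at 57.7, 47.3 and 457 CPM with DMSO. The groups did not overlap, but DMSO replicate 3 stood far above its group and nearer to PNU. The log2 fold change was 2.05 ± 0.69 (edgeR adjusted p = 0.0949), and without DMSO replicate 3 it was 3.88 (adjusted p = 9.45e-08). Nr4a3 had 103, 61.8 and 62.8 CPM against 3.34, 3.23 and 26.1 CPM, a log2 fold change of 2.79 ± 0.73 (adjusted p = 0.0677). Nr4a2 had 67.7, 58.0 and 57.6 CPM against 9.84, 8.20 and 45.7 CPM. In each of these 3 genes PNU replicate 1 was the highest library and DMSO replicate 3 the highest of its group. These genes, like Fosb, Has1, Has2, Il6, Lif, Il11, Egr1 to Egr3, Id1 to Id3, Sik1, Crtc2, Crtc3, Atf4, Ddit3, Bhlhe40, Itga3, Myc and Top2a, were chosen for naming after their values were seen.

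Other genes of the cAMP list encode enzymes and cofactors of the pathway. Pde4b, a phosphodiesterase that breaks down cAMP, stood at 18.8, 13.5 and 14.8 CPM with PNU and 8.05, 8.95 and 10.9 CPM with DMSO. DMSO replicate 3 was close to its own group there, and the pairings gave 0.77 and 0.73 (log2 fold change 0.75 ± 0.16, adjusted p = 0.0589). Pde4d, a related enzyme, had 23.5, 19.2 and 20.7 CPM against 12.4, 11.0 and 17.6 CPM. Crem, a CREB-related modulator, had 17.8, 15.3 and 14.1 CPM against 6.06, 6.65 and 12.7 CPM. The salt-inducible kinase Sik1, which restrains CREB cofactors, had 83.1, 58.2 and 57.6 CPM against 56.6, 46.2 and 43.8 CPM, so that PNU replicate 1 was the library that stood out. Crtc2 and Crtc3, the cofactors themselves, were higher by 0.29 ± 0.10 and 0.33 ± 0.09. Inhba, the βA chain that forms activin A (chromosome 13, 16011851 to 16027211), stood at 363, 300.0 and 299.8 CPM against 114, 110 and 229 CPM, a log2 fold change of 1.09 ± 0.25 (adjusted p = 0.0630). The palindromic cAMP response element TGACGTCA was present in 1 of 28 promoters of 17 matched genes of this list, that of Dusp1, or 3.57%, against 1.79% of all promoters in the RefSeq table (windows of 250 bases before to 50 after the start site, a palindrome and thus read once for both strands).

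**Figure D2:**
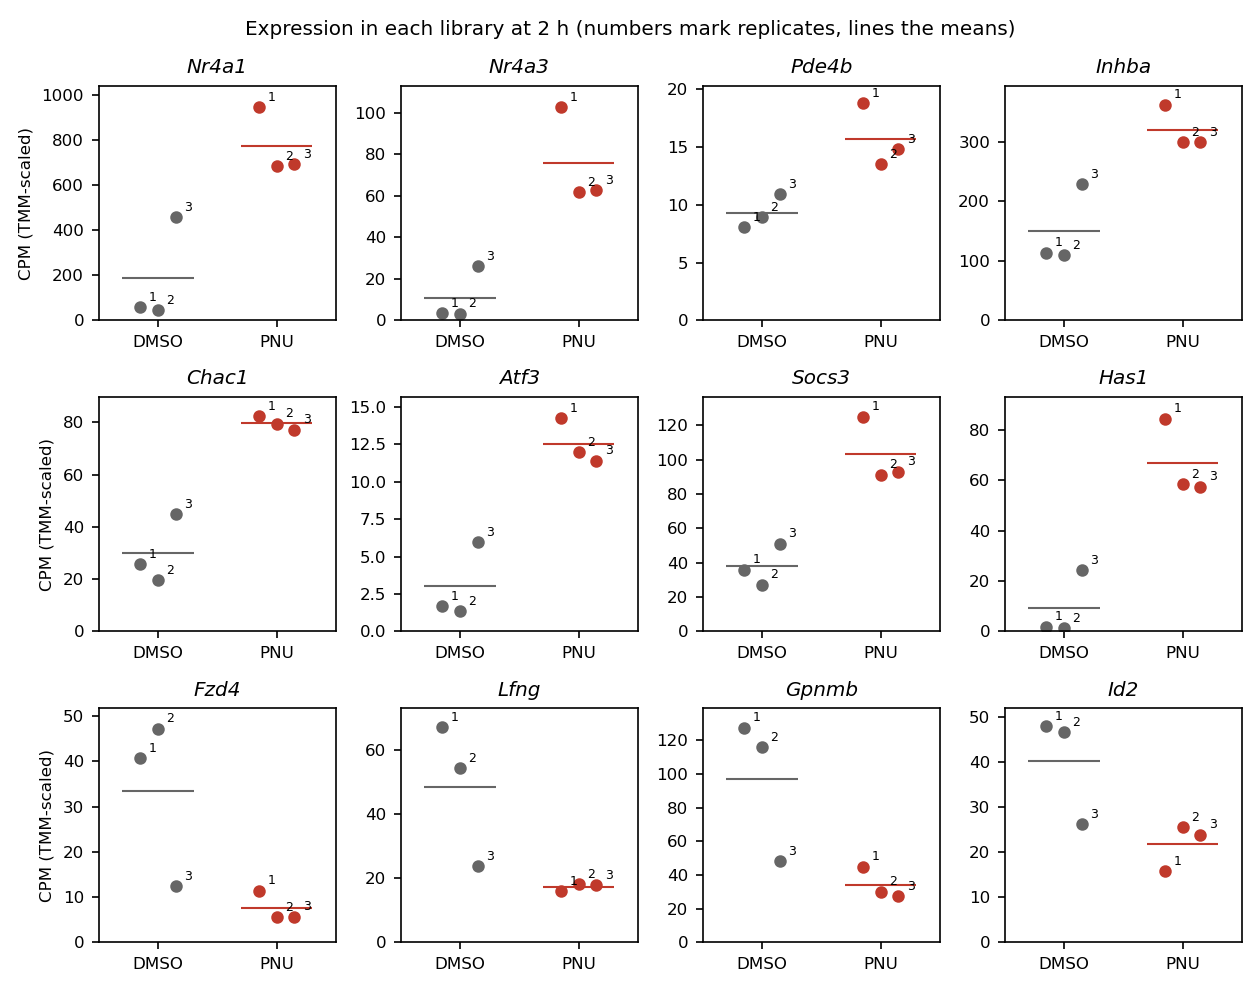
Level in CPM (linear axes from 0) of 12 genes in the 3 PNU and 3 DMSO libraries at 2 h, with replicate numbers beside the points and lines at the group means. DMSO replicate 3 lies between the groups for Nr4a1, Nr4a3, Has1, Fzd4 and Lfng, and near DMSO replicates 1 and 2 for Pde4b.

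Immediate early transcription factors overlap with this list in Fosb and the NR4A genes. Of 27 members, 14 were higher without overlap (51.9%) and 1, Fos, lower, and 24 were positive, with a median of 0.49. None passed in edgeR, 18 had an unadjusted p under 0.05, DESeq2 called 9 higher and 1 lower and limma-voom 3 higher. Fosb, a subunit of the AP-1 factor, had 109, 84.4 and 85.4 CPM with PNU and 12.4, 10.3 and 64.1 CPM with DMSO. Csrnp1, a nuclear factor with a serine- and cysteine-rich region, had 70.2, 51.0 and 51.9 CPM against 16.3, 12.4 and 31.8 CPM, and its DMSO replicate 3 was further from PNU (log2 fold change 1.51 ± 0.29, adjusted p = 0.0583). Fosl2, another AP-1 subunit, had 634, 526 and 539 CPM against 263, 234 and 463 CPM, and Myc, a growth-promoting factor, 126, 115 and 114 CPM against 62.8, 54.7 and 110 CPM. In Myc the gap between PNU and DMSO replicate 3 was small. Not all early growth response factors stood apart. Egr3 had 50.7, 33.7 and 35.3 CPM against 5.96, 3.92 and 30.2 CPM, while the groups overlapped for Egr2, because DMSO replicate 3 held 73.7 CPM against 69.3 CPM in PNU replicate 3. They also overlapped for Egr1, with 221 to 295 CPM against 187 to 224 CPM.

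In the list of ATF4 targets and amino acid supply, 18 of 32 members were higher without overlap (56.3%) and 0 lower. The median was 0.30 and 27 were positive. None passed in edgeR, 15 had an unadjusted p under 0.05, DESeq2 called 13 higher and limma-voom 2 higher. Between PNU replicate 1 and DMSO replicate 3 the median was 0.15, with 26 of 32 positive, and in the other libraries 0.50. Leaving out single libraries, which cannot lower this count, gave 18 to 26 higher without overlap. Without DMSO replicate 3, edgeR called 17 higher and 3 lower. ATF4 binds a composite element with C/EBP factors, TGATGNAA on either strand. It was present in the promoters of 9 of the 28 genes that matched the RefSeq table (GRCm38.p6). Counted by promoters, the share was 26.5% of the 34 promoters of these 28 genes, against 3.97% of all 32851 promoters. Of the 9 genes with the element, 6 were higher without overlap, with a median log2 fold change of 1.04 and a range of -0.15 to 2.05. Of the other 19, 11 were higher without overlap, with a median of 0.30. A match is a description of letters, not evidence of binding. The 250 bases before the start site follow for 5 genes with the element, 4 that stood apart and 1, Asns, that did not, with the element in capitals, as it reads on the printed strand.
Chac1: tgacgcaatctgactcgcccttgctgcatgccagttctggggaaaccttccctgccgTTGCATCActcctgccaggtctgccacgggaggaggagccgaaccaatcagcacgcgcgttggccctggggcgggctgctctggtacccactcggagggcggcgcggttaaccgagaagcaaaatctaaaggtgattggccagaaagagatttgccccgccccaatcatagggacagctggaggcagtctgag
Atf3: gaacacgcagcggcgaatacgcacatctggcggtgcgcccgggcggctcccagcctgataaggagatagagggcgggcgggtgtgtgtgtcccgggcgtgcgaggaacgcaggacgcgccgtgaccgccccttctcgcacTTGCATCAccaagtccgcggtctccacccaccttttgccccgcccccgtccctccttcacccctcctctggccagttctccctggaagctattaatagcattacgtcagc
Slc7a11: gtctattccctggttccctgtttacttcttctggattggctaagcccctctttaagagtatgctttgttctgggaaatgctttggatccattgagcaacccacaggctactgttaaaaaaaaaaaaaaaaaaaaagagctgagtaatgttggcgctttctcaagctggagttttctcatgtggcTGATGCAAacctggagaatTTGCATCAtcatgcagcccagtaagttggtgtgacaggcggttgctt
Nupr1: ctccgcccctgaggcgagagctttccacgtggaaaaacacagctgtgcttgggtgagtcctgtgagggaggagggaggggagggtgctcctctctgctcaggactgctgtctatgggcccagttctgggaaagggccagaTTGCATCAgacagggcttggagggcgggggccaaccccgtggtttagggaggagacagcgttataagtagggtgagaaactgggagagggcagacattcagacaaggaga
Asns: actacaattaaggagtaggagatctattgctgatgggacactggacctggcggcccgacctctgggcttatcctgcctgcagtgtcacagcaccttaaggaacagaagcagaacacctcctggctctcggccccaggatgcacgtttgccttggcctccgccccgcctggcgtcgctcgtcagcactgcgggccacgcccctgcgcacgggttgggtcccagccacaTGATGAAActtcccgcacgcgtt

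The promoter of Chac1 lies at chr2:119350992-119351241 on the plus strand, and the other 4 lie on the minus strand, at chr1:191183334-191183583 for Atf3, chr3:50443614-50443863 for Slc7a11, chr7:126625471-126625720 for Nupr1 and chr6:7693210-7693459 for Asns. Slc7a11 has the element on each strand, with both copies in the last 66 bases before the start, and in Asns it begins 23 bases before the start. Chac1, which breaks down glutathione and is a sensitive ATF4 target, stood at 82.3, 79.5 and 77.2 CPM with PNU and at 25.7, 19.7 and 44.9 CPM with DMSO (log2 fold change 1.40 ± 0.28, adjusted p = 0.0583). Atf3, a stress-induced repressor, stood at 14.3, 12.0 and 11.4 CPM against 1.71, 1.36 and 5.96 CPM (2.05 ± 0.49, adjusted p = 0.0636). In both, DMSO replicate 3 lay between the groups. Slc7a11, the cystine importer that supplies glutathione synthesis, stood at 22.4, 25 and 23.4 CPM against 7.28, 8.48 and 18.3 CPM, and Nupr1, a stress-induced chromatin protein, at 120, 156 and 148 CPM against 52.3, 41.8 and 113 CPM. Asns, the asparagine synthetase, overlapped between the groups, at 186, 164 and 162 CPM against 154, 161 and 183 CPM. Pycr1 and Slc1a4 hold the element and overlapped as well, and Vldlr, which also holds it, was higher by 0.15 ± 0.12. These 6 genes with the element other than Atf3, Chac1 and Slc7a11 were named for it, whatever their levels.

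Of the other genes of the list, Slc7a5 and Slc3a2, the subunits of a leucine transporter, stood at 272, 246 and 253 against 132, 109 and 201 CPM, and at 315, 298 and 299 against 196, 168 and 247 CPM. Trib3, a pseudokinase that feeds back on ATF4, has the element after the start site and stood at 27.7, 27.3 and 28.7 CPM against 13.5, 10.4 and 15.3 CPM, with DMSO replicate 3 near its own group. Atf4 itself had 347, 332 and 322 CPM against 258, 234 and 313 CPM, a log2 fold change of 0.32 ± 0.11. Its stress-induced partner Ddit3 had 86.9, 88.2 and 88.9 CPM against 62.8, 54.5 and 77.8 CPM. Aminoacyl-tRNA synthetases, which charge tRNAs and include known ATF4 targets, were higher without overlap in 7 of 22 (31.8%) and lower in 0, with a small median of 0.18 and 21 positive. Between PNU replicate 1 and DMSO replicate 3 the median was 0.06, with 13 of 22 positive. Without DMSO replicate 3, 18 were higher without overlap. The element was present in 5 of the 14 that matched: Aars, Gars, Iars, Tars and Yars. None of the 22 passed in edgeR, 9 had an unadjusted p under 0.05, DESeq2 called 4 and limma-voom 0. Iars, the isoleucyl enzyme, stood at 222, 228 and 226 CPM against 153, 150 and 209 CPM.

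Lif, Il6 and Il11, secreted cytokines, were higher with PNU without overlap, and in each DMSO replicate 3 was the highest of its group. Lif, a cytokine that signals through gp130 and is made by stressed Müller glia, had 190, 101 and 103 CPM with PNU and 11.1, 9.42 and 71.1 CPM with DMSO (log2 fold change 2.10 ± 0.66, adjusted p = 0.0854). Il6 had 36.5, 24.3 and 22.9 CPM against 4.55, 6.65 and 17.2 CPM, and Il11, of the same cytokine family, 8.77, 12.2 and 12.1 CPM against 1.23, 1.21 and 7.43 CPM. Lif and Il6 were highest in PNU replicate 1 and Il11 lowest there within the PNU group. Socs3, the feedback inhibitor induced by gp130 signalling, had 125, 91.4 and 93.1 CPM against 36.0, 27.2 and 51.2 CPM, and the pairings gave 1.29 and 1.56 (1.44 ± 0.35, adjusted p = 0.0636). In the list of gp130 and JAK-STAT genes as a whole, 6 of 27 were higher without overlap (22.2%) and 2 lower, or 14 and 9 without DMSO replicate 3. In that list edgeR and limma-voom called 0, DESeq2 called 4 higher and 3 lower, and 14 had an unadjusted p under 0.05. In the list of NF-κB targets and cytokines, 11 of 28 were higher without overlap (39.3%) and 2 lower, Cxcl1 and Vcam1. Without PNU replicate 1 these counts were 11 and 5, and without DMSO replicate 3 they were 15 and 5. Cxcl1 was the 1 that passed in edgeR, 14 had an unadjusted p under 0.05, and DESeq2 called 6 higher and 4 lower.

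Has1, a hyaluronan synthase (chromosome 17, 17843328 to 17855188), had 84.6, 58.7 and 57.5 CPM with PNU and 1.88, 1.42 and 24.4 CPM with DMSO, a log2 fold change of 2.85 ± 0.91 (adjusted p = 0.0882). Has2, the main synthase of mesenchymal cells, had 131, 91.0 and 87.5 CPM against 17.8, 21.6 and 74.4 CPM. Both synthases were lowest in DMSO replicates 1 and 2. The list of glycosaminoglycan synthesis and sulfation had 13 of 36 members higher without overlap (36.1%) and 2 lower, with a median of 0.09. The counts were 16 and 12 without DMSO replicate 3. Chst8 passed, and 19 had an unadjusted p under 0.05. Chst2, a GlcNAc 6-O-sulfotransferase, had 68.0, 65.1 and 67.1 CPM against 39.4, 28.6 and 48.2 CPM, with an adjusted p of 0.0506. Chsy1, which extends chondroitin chains, was higher by 0.50 ± 0.12 and Ndst1, which sulfates heparan sulfate, by 0.35 ± 0.07.

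Integrins and focal adhesion genes, which anchor cells to matrix, were higher without overlap in 13 of 34 members (38.2%) and lower in 0. These counts were 21 and 5 without DMSO replicate 3. Itgb3 and Pxn passed, the median was 0.29 and 16 had an unadjusted p under 0.05. Itgb3, the β3 chain, stood at 143, 119 and 120 CPM with PNU and 56.0, 54.1 and 79.2 CPM with DMSO. Itga5, the fibronectin receptor chain, stood at 810, 671 and 689 CPM against 320, 269 and 509 CPM. Itga3, a laminin receptor chain, differed within the PNU group: 11.7, 86.7 and 86.4 CPM against 2.94, 2.43 and 10.6 CPM. There PNU replicate 1 lay beside DMSO replicate 3, and the pairings gave 0.14 and 4.97, so the fold change of Itga3 rests on PNU replicates 2 and 3. Tns1, the adhesion protein tensin 1, was higher by 0.50 ± 0.10.

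In the TGF-β, activin and BMP list, the ligand gene Tgfb1 was higher and Id1, Id2 and Id4, of a family that BMP signalling induces, were lower. Of 49 members, 14 were higher without overlap (28.6%) and 5 lower (10.2%). The counts were 20 and 16 without DMSO replicate 3, and 19 and 10 without PNU replicate 1. Smad3 was the 1 that passed in edgeR, 24 had an unadjusted p under 0.05 and the median was 0.05. Tgfb1, the TGF-β1 ligand, had 53.8, 68.8 and 71.3 CPM with PNU and 19.8, 14.9 and 38.2 CPM with DMSO (log2 fold change 1.41 ± 0.27, adjusted p = 0.0583). Acvr1, an activin and BMP receptor, had 93.0, 95.7 and 103 CPM against 53.2, 50.3 and 79.9 CPM. Of the Id genes, inhibitors of basic helix-loop-helix factors, Id2 had 15.8, 25.6 and 23.9 CPM against 47.9, 46.7 and 26.2 CPM. Id1 and Id4 were lower too, with log2 fold changes of -0.70 ± 0.23 and -0.79 ± 0.17, whereas Id3 overlapped, with DMSO replicate 3 at 129 CPM and PNU replicates 2 and 3 at 145 and 146 CPM. Sox9, a factor of glia and progenitors, had 305, 218 and 236 CPM against 93.3, 83.6 and 186 CPM.

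Growth factor and glucose genes included Vegfa, the vascular growth factor, with 792, 617 and 622 CPM with PNU and 177, 167 and 465 CPM with DMSO. Hk2, the inducible hexokinase, had 310, 217 and 230 CPM against 43.9, 38.9 and 149 CPM, and Slc2a1, the glucose transporter GLUT1, 86.3, 70.7 and 73.8 CPM against 41.9, 33.6 and 55.9 CPM. Adm, adrenomedullin, which hypoxia also induces, went the other way, with 25.8, 18.8 and 18.2 CPM against 74.6, 69.8 and 28.7 CPM. In the whole list of glycolysis and hypoxia, 7 of 35 were higher without overlap (20%) and 2 lower, with a median of 0.06. The counts were 13 and 11 without DMSO replicate 3, 13 and 4 without PNU replicate 1, and 12 and 3 without DMSO replicate 1. None of the 35 passed in edgeR, 16 had an unadjusted p under 0.05, DESeq2 called 6 higher and 2 lower and limma-voom 0.

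All 3 lists of chromatin and transcription had more members higher than lower without overlap. For those of histone methylation and of transcript elongation, the differences were small and lay mainly outside PNU replicate 1 and DMSO replicate 3. Of 46 histone lysine methylation enzymes, 14 were higher without overlap (30.4%) and 0 lower, with a median of 0.13. Dot1l passed, and 18 had an unadjusted p under 0.05. Scaling by library totals alone gave 6 in place of 14, and leaving out DMSO replicate 3 gave 22 higher and 8 lower. The median was 0.03 between PNU replicate 1 and DMSO replicate 3 and 0.22 in the other libraries. Kdm6b, a demethylase of H3 lysine 27, had 136, 123 and 126 CPM with PNU and 97.5, 77.7 and 94.2 CPM with DMSO, and the pairings gave 0.53 and 0.52 (adjusted p = 0.0578). Kmt2a and Kmt2d, methyltransferases of H3 lysine 4, were higher by 0.35 ± 0.08 and 0.33 ± 0.08. In the list of RNA polymerase II pausing and elongation, with DOT1L partners, 11 of 36 were higher (30.6%) and 1 lower without overlap, or 18 and 4 without DMSO replicate 3, and Dot1l, also in this list, passed. Its medians in the pairings were 0.01, with 19 of 36 positive, and 0.14. Aff1, a scaffold of the super elongation complex, had 205, 165 and 171 CPM against 64.0, 65.7 and 128 CPM. Among genes of histone acetylation and DNA methylation, 8 of 36 were higher (22.2%) and 4 lower (11.1%) without overlap, with a median of 0.04. Scaling by totals gave 7 and 6, and leaving out DMSO replicate 3 gave 14 and 12. None of the 36 passed in edgeR, 16 had an unadjusted p under 0.05, DESeq2 called 7 higher and 2 lower, and limma-voom 1 higher.

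Circadian clock genes were higher without overlap in 8 of 22 (36.4%) and lower in 0, with a median of 0.19. None of the 22 passed in edgeR, 10 had an unadjusted p under 0.05, DESeq2 called 6 higher and limma-voom 0. Nfil3, a basic leucine zipper repressor of clock output, had 34.3, 30.7 and 30.3 CPM with PNU and 17.5, 17.4 and 16.7 CPM with DMSO. DMSO replicate 3 was the lowest library there, unlike for most genes (log2 fold change 0.89 ± 0.23, adjusted p = 0.0664). Bhlhe40, a repressor induced by many stimuli, followed the common order, with 299.8, 248 and 248 CPM against 56.2, 49.4 and 187 CPM. Nr1d1, the repressor REV-ERBα, was higher by 0.50 ± 0.12. The E-box CACGTG, the palindrome bound by clock factors and Bhlhe40, was present in 22.2% of the promoters of this list and in 7.15% of all. Its share was 26.7% for aminoacyl-tRNA synthetases and 22% for ribosome biogenesis genes, so it was not particular to the clock list.

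**Figure D3:**
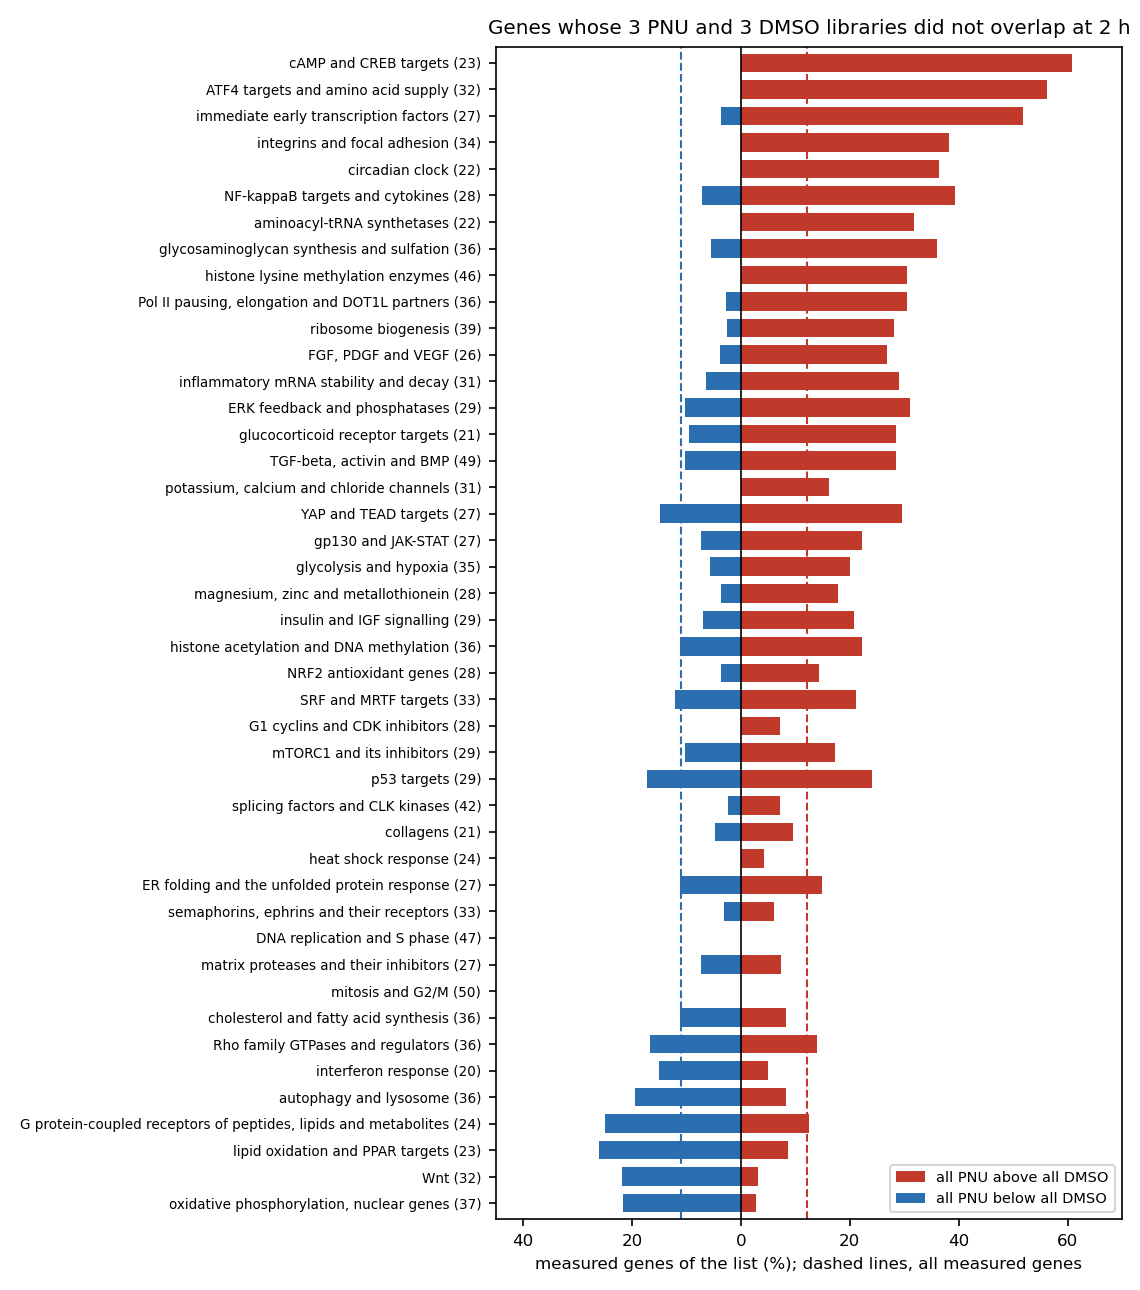
Share of members of each gene list (rows, lists with at least 20 members) that were higher (red) or lower (blue) with PNU at 2 h without overlap of the groups, in percent. Dashed lines mark the shares over all members, 12.1% and 10.9%; the lists of cAMP and CREB targets and of ATF4 targets have the longest red bars, 60.9% and 56.3%, and no blue ones.

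Receptors of the Wnt pathway were among the genes lower with PNU. Fzd4, a frizzled receptor needed for retinal vessels (ENSMUSG00000049791, chromosome 7, 89404355 to 89413134), had 11.4, 5.51 and 5.73 CPM with PNU and 40.7, 47.3 and 12.5 CPM with DMSO. The groups did not overlap, but PNU replicate 1 and DMSO replicate 3 were nearly equal: the pairings gave -0.12 and -2.94 (log2 fold change -2.15 ± 0.44, adjusted p = 0.0583). Fzd8 had 33.4, 33.1 and 32.9 CPM against 91.0, 71.9 and 35.7 CPM, and Fzd5 and Fzd2, with log2 fold changes of -0.81 ± 0.18 and -0.54 ± 0.14, were also lower. In the whole Wnt list, 7 of 32 were lower without overlap (21.9%) and 1 higher (3.12%), yet the median was positive, 0.16. Without PNU replicate 1 the counts were 12 lower and 11 higher, and without DMSO replicate 3 they were 11 and 15. None of the 32 passed in edgeR, 16 had an unadjusted p under 0.05, DESeq2 called 5 higher and 4 lower and limma-voom 0.

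In the Notch list, 3 of 17 were higher (17.6%) and 4 lower (23.5%) without overlap, with a median of -0.29 and 4 positive. Without DMSO replicate 3 the counts were 3 and 13. Between PNU replicate 1 and DMSO replicate 3 the median was 0.09, with 12 of 17 positive, and in the other libraries -0.43. None of the 17 passed in edgeR, 11 had an unadjusted p under 0.05, DESeq2 called 2 higher and 5 lower, and limma-voom 0. Lfng, a glycosyltransferase that modifies Notch receptors, had 16.1, 18.1 and 17.8 CPM with PNU and 67.1, 54.3 and 23.8 CPM with DMSO (log2 fold change -1.48 ± 0.27, adjusted p = 0.0545). Notch2, a receptor, had 245, 220.3 and 227 CPM against 118, 106 and 170 CPM, and Hes1, a Notch target, had a log2 fold change of -0.37 ± 0.10. Spry1, an inhibitor of growth factor signalling, had 12.6, 9.72 and 9.20 CPM against 39.4, 32.6 and 14.1 CPM. Vcam1, a cytokine-induced adhesion molecule, had 154, 122 and 125 CPM against 287, 335 and 173 CPM. For Spry1 and Vcam1, PNU replicate 1 and DMSO replicate 3 differed little, by -0.16 each.

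In 3 lists of the lysosome and of mitochondrial energy supply, more members were lower than higher without overlap. In the autophagy and lysosome list, 7 of 36 were lower without overlap (19.4%) and 3 higher, with a median of -0.28. Without PNU replicate 1 or DMSO replicate 3, 13 and 26 were lower. That median was -0.41 in PNU replicates 2 and 3 against DMSO replicates 1 and 2 but 0.01 between PNU replicate 1 and DMSO replicate 3. Gpnmb, a lysosome-linked glycoprotein, had 45.1, 30.1 and 27.6 CPM with PNU and 128, 116 and 48.5 CPM with DMSO. Nuclear genes of oxidative phosphorylation were lower without overlap in 8 of 37 (21.6%) and higher in 1, with a median of -0.07, and between PNU replicate 1 and DMSO replicate 3 only 5 of 37 were positive. With scaling by library totals alone, 15 were lower and 0 higher, and without DMSO replicate 2 14 were lower and 1 higher. Without DMSO replicate 3 the lean was small, with 10 lower and 8 higher, and edgeR called 8 lower and 5 higher. The list of lipid oxidation and PPAR targets had 6 of 23 lower without overlap (26.1%) and 2 higher, and 14 and 4 without DMSO replicate 3. Its median was -0.01 between PNU replicate 1 and DMSO replicate 3, with 11 of 23 positive, and -0.29 in the other libraries. Cpt1a, which carries fatty acids into mitochondria, had 95.7, 101 and 101 CPM against 132, 136 and 104 CPM. None of the members of these 3 lists passed in edgeR or limma-voom. At an unadjusted p under 0.05 there were 22 of 36, 8 of 37 and 11 of 23, against 33.6% of all members. DESeq2 called 11, 3 and 7 lower and 1, 0 and 0 higher.

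Further lists whose pairings differed in sign, or where 1 of them was near 0, included those of cell division, interferon response, MHC class I, heat shock, splicing and ribosome biogenesis. Others, such as those of collagens and matrix proteases, differed in sign as well and are not described further. In the list of mitosis and G2/M genes, all 50 members were higher on average (median 0.44), but 0 had groups that did not overlap. Their median was 0.80 in PNU replicates 2 and 3 against DMSO replicates 1 and 2, and -0.13 between PNU replicate 1 and DMSO replicate 3, where 2 of 50 were positive. The S phase list was alike, with 0 of 47 without overlap and medians of 0.73 and -0.18. Mki67, a proliferation marker, had 129, 147 and 151 CPM with PNU and 63.1, 74.7 and 151 CPM with DMSO. Interferon response genes had medians of -0.91 and 0.10, MHC class I genes -0.53 and 0.07, heat shock genes 0.35 and -0.07, splicing factors 0.25 and -0.07, and ribosome biogenesis genes 0.69 and 0.00. For Ptgs2, the inducible cyclooxygenase, DMSO replicate 3 stood far above its group and near PNU, with 648, 560 and 551 CPM against 30.4, 40.3 and 510 CPM. The groups of Ptgs2 did not overlap, and both pairings were positive. In these 7 lists edgeR called 0 members. At an unadjusted p under 0.05 there were 8 of 50 mitosis, 3 of 47 S phase, 13 of 20 interferon and 7 of 15 MHC class I genes. There were also 9 of 24 heat shock, 4 of 42 splicing and 23 of 39 ribosome biogenesis genes. Against 33.6% of all members, the mitosis, S phase and splicing shares were lower and the others higher. DESeq2 called 0, 0, 7, 5, 2, 1 and 10 in that order, and limma-voom 0 in each. Without DMSO replicate 3, edgeR called 47 of 50 mitosis genes and 39 of 47 S phase genes higher. Y-linked RNA was present in PNU replicate 1 and DMSO replicate 3, and the cause of the pattern in these lists was not tested. In a fit with Y-linked RNA as a term, 20 mitosis and 8 S phase genes were called higher (10.5% of members were, and 11.1% were called lower).

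**Figure D4:**
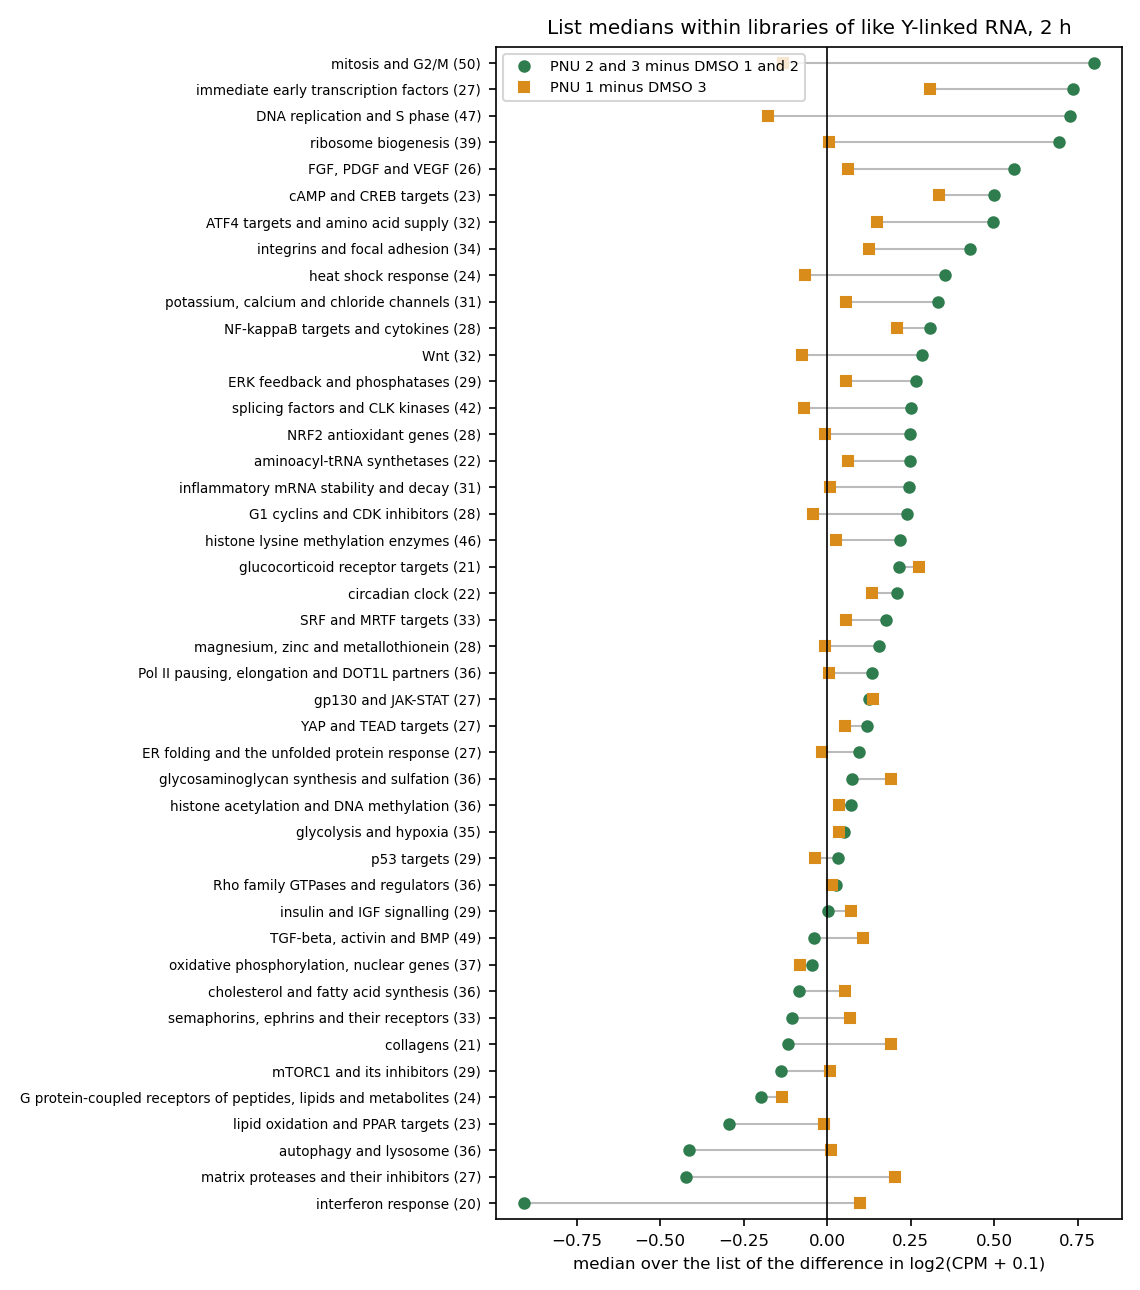
Median log2 difference between PNU and DMSO for each gene list (rows), taken between PNU replicate 1 and DMSO replicate 3 (squares) and between PNU replicates 2 and 3 and DMSO replicates 1 and 2 (circles). For the cAMP list both are positive, 0.33 and 0.50, while for mitosis genes they are -0.13 and 0.80.

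The α7 receptor gene Chrna7 was no member, at 0.35, 0.62 and 0.34 CPM with PNU and 0.07, 0.11 and 0.33 CPM with DMSO. Its level in DMSO replicate 3 was close to that in PNU replicates 1 and 3. Gfap, a marker of glial activation, was at most 0.333 CPM in every library at 2 h.

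Most of the 45 genes that passed at 2 h had a smaller difference at 6 h. They were chosen for passing at 2 h, which by itself favours larger sizes there, so the sizes are given as a description. Of them, 37 had the same sign at 6 h, and 36 had a size at 6 h of under 0.5 times that at 2 h, with median sizes of 0.86 and 0.22 in the direction of 2 h. At 6 h 151 members passed (1.2%), and 2 of the 45 did so: Ramp3, with a log2 fold change of 2.07 (adjusted p = 0.00276), and Dysf, with 0.49 (adjusted p = 0.0322). The change in the PNU effect from 2 h to 6 h was tested for each gene. It passed for 6 members (0.0478%), 1 of them among the 45: Cxcl1, which fell at 2 h by 0.76 and stood 0.38 higher with PNU at 6 h. The 2 h and 6 h groups share no libraries. At 6 h, PNU replicates 2 and 3 carried Y-linked RNA, at summed levels of 15.0 and 14.6 CPM. In PNU replicate 1 and the DMSO libraries at 6 h it was at most 0.194 CPM. Treatment and that difference between libraries are thus largely mixed at 6 h too, and its part in the 6 h values was not tested. For the lists, the median at 6 h was 0.22 for cAMP and CREB targets, -0.06 for immediate early factors, of which 4 fell, and -0.24 for ATF4 targets. Nr4a1 had a log2 fold change of 0.26 at 6 h, Chac1 -0.22, Socs3 0.37 and Has1 1.13, none of which passed.

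**Figure D5:**
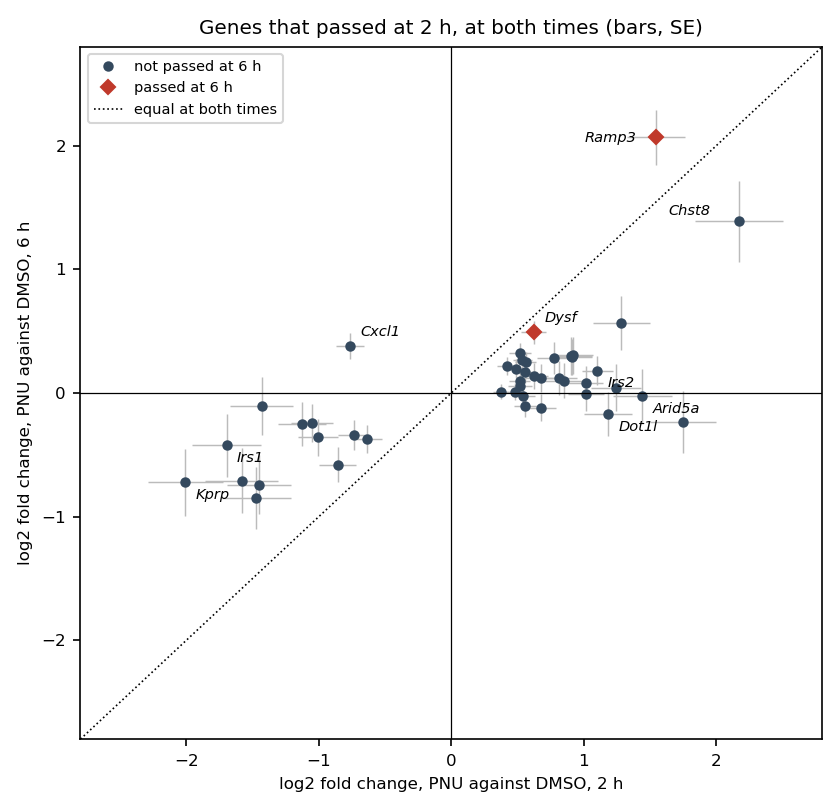
Log2 fold change between PNU and DMSO at 2 h (horizontal) and at 6 h (vertical) for the 45 genes that passed at 2 h, with bars of 1 SE. Most points lie near 0 on the vertical axis, and Ramp3 and Dysf are those that also passed at 6 h.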

How the data were processed

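The libraries were made from poly(A) RNA and read as 150-base pairs. The tables hold whole-number counts per gene as the authors deposited them, without normalization. Per the labels' protocols, the steps before were trimming (fastp 0.23.2), alignment to GRCm38 (STAR 2.5.2b) and counting (featureCounts, Subread 1.5.2). DESeq2 appears in the submitters' processing notes without a stated role. Strand setting, multi-mapping and annotation release are not given in the sources used here. GENCODE M21 supplied symbols for 49056 of 49315 identifiers.

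The test was edgeR 4.0.16 (R 4.3.3) on all 12 libraries: filterByExpr, TMM scaling and a robust quasi-likelihood fit of 4 group means, with 3 contrasts. The common biological coefficient of variation was 0.198. Levels are TMM-scaled CPM, logarithms of single libraries used CPM plus 0.1, and an SE is the fold change over the square root of F. In simulated counts the 2 h comparison recovered 72% of genes changed 2-fold and 94% of those changed 4-fold, with 7 false calls among 17164 genes. The simulation drew independent libraries around a common mean per gene, with no library that stood apart and no near-identical pair. Its figures therefore do not describe how the test performs on the 2 h libraries as they were.

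Members and the 66 lists were chosen with earlier results of these data known. Named genes are all members that passed, up to 4 members per list (those that passed, then those without overlap, by smallest p), a fixed set, and those said to be chosen afterwards. Alternatives were other scalings, filters and tools (DESeq2 1.42.0, limma 3.58.1), a replicate block, and libraries left out. Y-linked RNA as a term and scaling by totals were added after the data were seen.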

Additional observations from a re-analysis of the deposited data

Results flagged for a closer look

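Cxcl1 was the 1 gene among those that passed at 2 h whose PNU effect differed between 2 h and 6 h by a test of the difference itself. The log2 fold change was -0.76 ± 0.11 at 2 h and 0.38 at 6 h, a difference of 1.14 (edgeR adjusted p = 0.0426). At 2 h, all 3 PNU libraries lay below the 3 DMSO libraries. The groups held 3 libraries each and were not tested for single outlying values. Among the 6 h libraries, Y-linked RNA was present in PNU replicates 2 and 3 only, and its part in this difference was not tested.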

How the results depend on the processing

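The number of members that passed, 45 with 32 higher, was 48 and 51 with the other 2 scalings, 60 with only members tested, 45 without robust estimation and 45 without mitochondrial genes. It was 2224 with DESeq2 (40.2% higher, against 71.1%), 70 with limma-voom (84.3% higher), 2711 with Y-linked RNA as a term (48.6% higher), 134 at a mean of at least 5 CPM, 118 with no filter and 7590 without both libraries that stood apart (49.6% higher). It was 0 against a minimum fold of 1.2, with near-identical libraries summed, and with the 2 h libraries alone, where 2846, 1487 and 2926 of all genes had an unadjusted p under 0.05 in edgeR. Leaving out 1 library gave 0 to 6543. With the replicate number as a replicate block it was 258 (59.7% higher). Libraries of the same number did not deviate together (correlations of 0.0086, -0.0024 and -0.0068), so the numbers are not taken to pair them. Of the 45 genes, 45 also passed with DESeq2, the block, Y-linked RNA as a term or without DMSO replicate 3, 41 with limma-voom, 34 without PNU replicate 1, 1 without DMSO replicate 1 or DMSO replicate 2, and 0 in the settings that gave 0. Members whose groups did not overlap, 2894 in all, numbered 3253 to 8501 with 1 library left out, and 8501 without both libraries that stood apart. Leaving out libraries cannot lower that number. Of single genes, Ddx3y, whose fold change was -1.13, turned to 0.34 with the replicate block and to 4.30 without both libraries that stood apart, and ran from -5.14 to 4.34 with 1 library left out. Asns, at 0.04, ran from -0.0248 to 0.12. The causes were not tested. Depth limits levels near 3 counts, 0.0451 to 0.0663 CPM at 2 h, and no alternative changed the depth.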

Other observations

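Of the 50 genes that passed at 2 h, 5 were too scarce to be members. Nup210, a nuclear pore protein, stood at 0.208, 0.245 and 0.308 CPM with PNU and at 0.0527, 0.0374 and 0.0158 CPM with DMSO, where 2 of the 3 libraries were below the level of 3 counts, and it also passed at 6 h (adjusted p = 0.0137). Rflna, refilin A, stood at 0.808, 1.00 and 0.862 CPM against 0.264, 0.224 and 0.300 CPM. Agtr1a, an angiotensin receptor, stood at 0.300, 0.0889 and 0.123 CPM against 2.21, 3.03 and 0.599 CPM. Gm15958 and Gm22980 were the others, both higher with PNU, but 225 bases of Gm15958 lie opposite Ccbe1, a more abundant gene, so its reads are uncertain.

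Xist, the noncoding RNA of X inactivation, stood at 0.809 and 0.860 CPM in DMSO replicates 1 and 2 and at most 0.138 CPM in the other 4 libraries at 2 h. Trim25, an interferon-induced ubiquitin ligase, was the member of the interferon list that was higher without overlap, with 65.3, 50.2 and 52.6 CPM with PNU and 40.6, 40.8 and 39.0 CPM with DMSO. Its log2 fold change was 0.48 at 2 h and -0.45 at 6 h, and the difference had an unadjusted edgeR p of 5.97e-05 and an adjusted p of 0.0757.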
